A study of Oryza sativa Japonica Group with 20 samples.

Results

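Broad H3K27me3 domains are long stretches of rice chromatin that carried trimethylation of histone H3 lysine 27 in every library of the series. Peaks of the 6 H3K27me3 libraries were joined wherever they overlapped by at least 1 bp, which gave 15519 regions. Of these, 1358 were at least 5000 bp wide, and 1159 of the wide regions had at least 50% of their width under peaks in each of the 6 libraries. These 1159 regions, 7.47% of all, are the domains described here. The domains were chosen by peak width and peak coverage in these same libraries, so both are given as description. Another 7917 regions were marked in every library without meeting the rule, 7726 of them because they were narrower than 5000 bp, and serve as the comparison below.

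H3K27me3 is set by Polycomb repressive complex 2, whose catalytic subunits in plants are SET-domain proteins of the CLF and EZ1 kind. The mark lies over genes that are kept silent, among them many developmental regulators. In plants it usually covers single transcribed units, so a stretch of many kilobases can hold several adjacent genes. SLR1 is the only DELLA protein of rice with the full domain structure, and it restrains gibberellin (GA) responses until GA triggers its breakdown.

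Chromatin came from whole Japonica seedlings grown on half-strength Murashige and Skoog medium, and a Diagenode antibody was used. In each case 2 replicates were labelled CK (wild type, untreated), GA (wild type, 100 uM GA through the roots for 6 h) and slr1 (SLR1 knockout, 12 days old per the series' design text). The age of the CK and GA seedlings, the kind of slr1 mutation, the number of plants pooled and the read depth are unknown, and nothing says whether replicates came from separate plants. Marker genes could not check the seedling label in these libraries, since peaks hold no expression.

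Names stored inside the peak files go against 2 of the labels. Peaks of both CK-labelled libraries carry a name with "6h", and peaks of both GA-labelled libraries a name with "CK". Groups below follow the labels, and a direction between CK and GA would turn if the names inside the files were right. Values of slr1 are therefore also set against all 4 wild-type libraries at once, which does not depend on that doubt. No H3K27me3 library labelled as the wild type of the slr1 experiment was analysed here. Genotype, experiment and possibly age cannot be told apart in any slr1 comparison. No source used here names the genome build. Positions are therefore those of the files, and no gene was placed in a domain.

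The domains took up a large part of the marked genome although they were few. They spanned 12.1 Mb, which is 36.5% of the 33.2 Mb under all joined regions. Peaks inside them made up 43.2% and 41.9% of all peak bases in CK replicates 1 and 2, 45.1% and 43.5% in GA, and 41.2% and 47.9% in slr1. Between 10.9% (CK replicate 2 and slr1 replicate 1) and 16.6% (slr1 replicate 2) of a library's peaks lay in a domain.

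Most domains were close to the minimum width. The median was 8294 bp, with quartiles at 6190 and 12242 bp, against a median of 1657 bp for the other shared regions. From 5000 to 6000 bp there were 254 domains, and 430 (37.1%) reached 10000 bp or more, holding 58.4% of the domain bases. At 20000 bp to below 40000 bp there were 63, and 11 domains were wider than that. Those 11 held 4.78% of the domain bases.

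**Figure D1:**
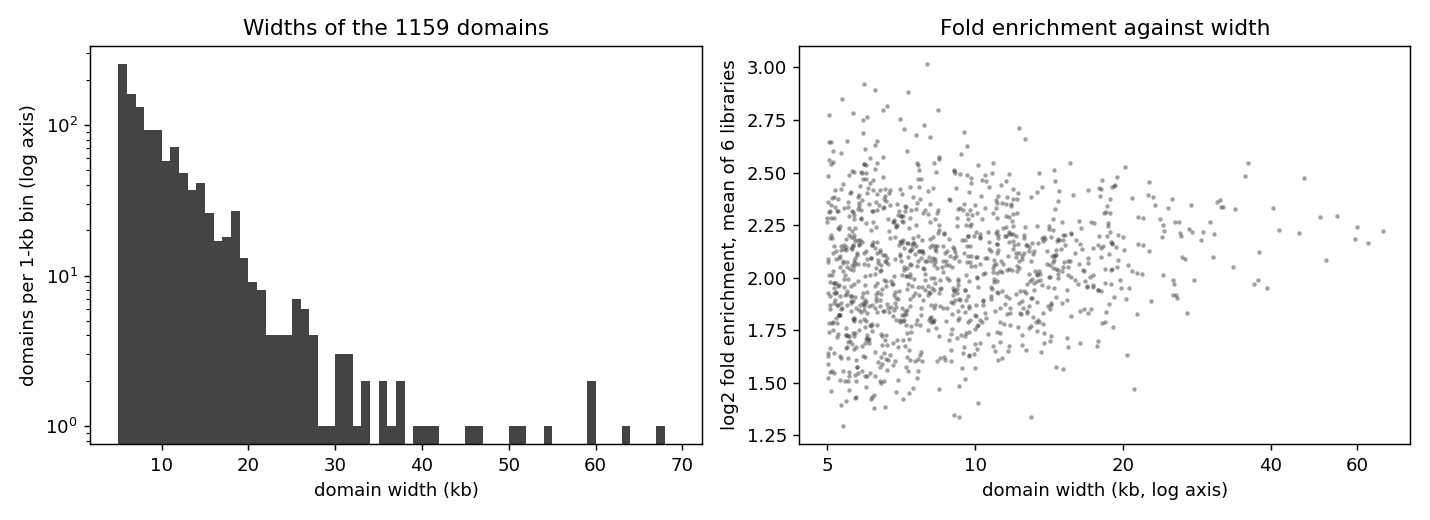
Left, number of domains in 1-kb bins of width, on a log axis. Right, mean log2 fold enrichment over the 6 libraries against width, 1 point per domain: the narrow domains spread over the whole range, while the 10 widest lie between 4.25 and 5.56 in mean fold enrichment.

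The widest domain, chr7:2386433-2453974, measured 67542 bp and was 1 unbroken peak in CK replicate 2 only. Peaks covered 98.4% and 100% of it in the CK libraries, 96.6% and 98.2% in GA, and 92.5% and 87.8% in slr1. The slr1 libraries were thus both below the 4 others. The longest break was at the same place in both: slr1 replicate 1 had no peak from 44.03 to 47.5 kb from the left end, and slr1 replicate 2 none from 43.684 to 48.73 kb. Shorter breaks lay there in CK replicate 1, from 45.449 to 46.194 kb, and in GA replicate 2, from 44.068 to 44.808 kb. GA replicate 1 had a pair of them, from 44.382 to 45.087 kb and from 46.095 to 47.273 kb.

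The second widest domain, chr1:5547853-5610990 (63138 bp), had another order. A single peak covered 99.4% of it in slr1 replicate 1, and 5 peaks covered 92.8% in slr1 replicate 2. In CK 7 and 4 peaks covered 90.4% and 96.2%, and in GA 10 and 9 peaks covered 82.4% and 85.4%. The GA libraries were lowest, and slr1 replicate 2 fell within the CK range. A break at about 56 to 57 kb from the left end was present in all libraries but slr1 replicate 1.

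Of the next 8 in width, 6 were covered to at least 90% in every library. The domain chr3:26974205-27034203 (59999 bp) was covered at 97.8% and 99.2% in CK, 96.5% and 97.9% in GA and 97.1% and 98.1% in slr1, so that the 3 groups overlapped. The domain chr9:13907906-13953449 (45544 bp) was similar, at 96.9% or more in all 6 libraries. Coverage was also above 93% in every library for chr10:2383454-2437964, chr7:1885791-1932501 and chr6:24427711-24469306, and 90.8% or more for chr11:25808321-25867646. The exceptions were chr5:6386460-6438145, lowest at 84.3% in GA replicate 2, and chr2:17217929-17268246, lowest at 89.1% in GA replicate 1.

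Fold enrichment, the authors' value for each peak over its background, was averaged over a region's peaks with their lengths as weights. Its median over domains was 4.31 and 4.63 in CK, 3.80 and 4.21 in GA, and 4.35 and 3.63 in slr1. The other shared regions had 3.61 and 3.73 in CK, 3.17 and 3.51 in GA, and 3.21 and 2.85 in slr1. Domains therefore stood higher than the rest in all 6 libraries. Fold and peak width come from the same reads, so this is no independent finding.

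Ranked among the 9076 regions marked in every library, the median domain stood at the 64.3 and 67.5 percentile of fold in CK, 66.8 and 65.1 in GA, and 75.8 and 73.3 in slr1. The ratio of the domain median to that of the other shared regions was 1.19 and 1.24 in CK, 1.20 and 1.20 in GA, and 1.35 and 1.27 in slr1. Both slr1 values lay above all 4 wild-type values on either measure. The mean ratio differed from CK by 0.0950 and from GA by 0.115. Without slr1 replicate 1 the differences were 0.0555 and 0.0756. With all 6 libraries the differences exceed the replicate gaps of 0.0486 in CK, 0.00194 in GA and 0.0819 in slr1. With 2 libraries a group no exact test can pass the 0.05 threshold. The rule required coverage by slr1 peaks, and fold comes from those peaks, so the cause of the higher ratio was not tested.

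**Figure D2:**
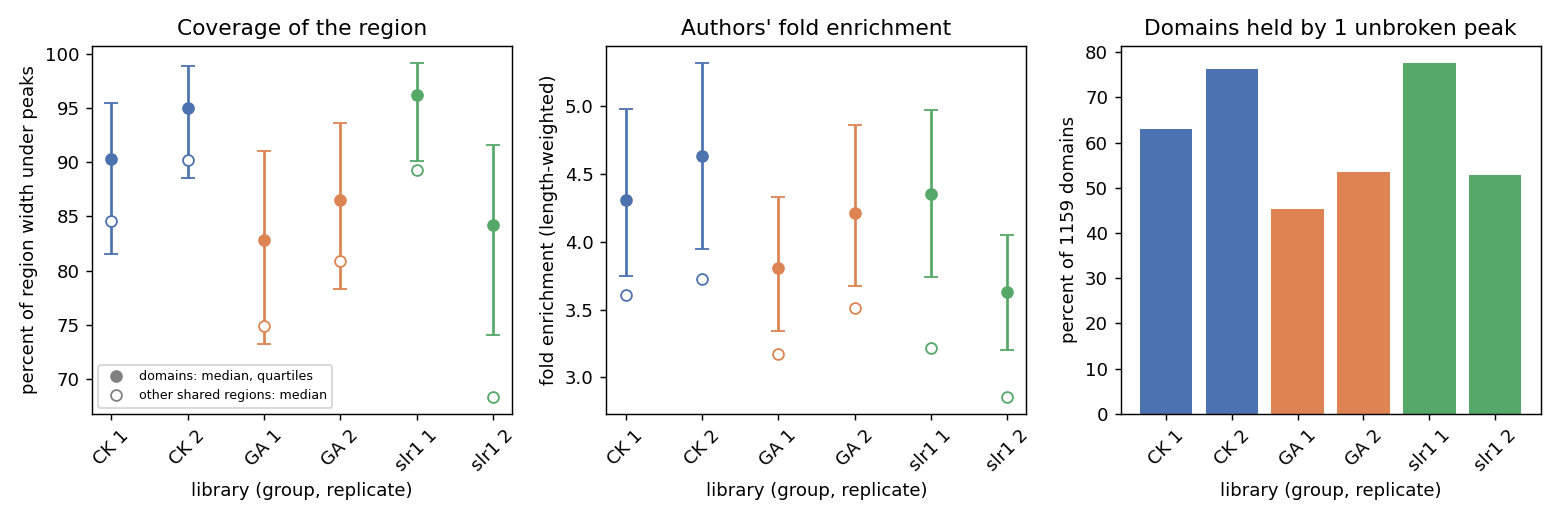
Values of the 6 libraries: percent of region width under peaks (left; axis does not start at 0), fold enrichment (middle; axis does not start at 0) and percent of the 1159 domains held by 1 unbroken peak (right). Filled points are domain medians with quartiles, open points medians of the other shared regions. The distance between filled and open points for fold is widest in slr1 replicate 1, and for coverage the 2 slr1 medians enclose those of both CK libraries and of GA replicate 2, with GA replicate 1 below them.

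Counts of single domains were set against the same count over all regions marked in every library, called the background. Fold was lower in both slr1 libraries than in both CK libraries in 544 domains (46.9%), against a background of 66.7%, and higher in 11, against 2.48%. Against both GA libraries it was lower in 152 domains (13.1%, background 36.2%) and higher in 47 (4.06%, background 5.5%). Below all 4 wild-type libraries lay 149 domains (12.9%), against a background of 34.1%, and above them 9, against 1.48%. After division by each library's median over shared regions, 502 domains (43.3%) were higher in both slr1 libraries than in all 4 others, against a background of 22%. By the same measure 49 (4.23%) were lower, against 17.6%. As a description, the share of domains higher in slr1 on this relative scale was thus above that of all regions, domains included. Against CK alone 612 were higher (52.8%, background 33.2%) and 81 lower (6.99%, background 28%). Against GA alone 677 were higher (58.4%, background 30.1%) and 104 lower (8.97%, background 25.6%). Fold comes from the same peaks whose coverage the rule required, those of both slr1 libraries included. The relative scale is also not independent of the ratio of domains to other shared regions given above. The part of the rule in these shares was not tested, and nothing further is read from them.

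Between the wild-type groups, fold was lower in the GA-labelled libraries both in domains and in the other shared regions. Group means of the median were 4.01 in GA and 4.47 in CK for domains, and 3.34 and 3.67 for the other shared regions. Fold was lower in both GA libraries than in both CK libraries in 745 domains (64.3%, background 51.2%) and higher in 5 (background 3.11%). After division by the library medians, 289 were lower (24.9%, background 22.6%) and 226 higher (19.5%, background 23.7%). On that scale the domain shares were thus near the background.

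The order of the domains by fold was shared between libraries. Across the 1159 domains, Spearman's rho between 2 libraries of the same group was 0.938 to 0.970, and between libraries of different groups 0.835 to 0.966. It averaged 0.955 between CK and GA, 0.906 between CK and slr1, and 0.870 between GA and slr1. Over the other shared regions these averages were 0.933, 0.858 and 0.850. The order of the domains by coverage was shared less: rho was 0.417 to 0.692 within groups and -0.0483 to 0.652 between them. The points are domains of the same libraries and not replicates.

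The highest fold belonged to narrow domains. The domain chr8:7255833-7263796 (7964 bp) was 1 peak in every library, with fold enrichment of 8.77 and 9.04 in CK, 7.83 and 9.04 in GA, and 7.85 and 6.36 in slr1. Only slr1 replicate 2 stood below the range of the other 5. Next was chr11:5672023-5677969 (5947 bp), at 8.56 and 8.89 in CK, 6.96 and 9.06 in GA, and 6.96 and 5.64 in slr1. Its coverage was 84.6% and 87.7% in slr1 and 74.0% to 84.9% in the other libraries. Rank 3 was chr2:35406560-35412820 (6261 bp), with a mean fold of 7.43, where coverage was 64.8% and 66.0% in GA and at least 84.3% in the 4 other libraries.

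At the low end, chr10:10683340-10688723 (5384 bp) had a mean fold of 2.45, chr12:7374960-7384213 (9254 bp) 2.52 and chr4:29355268-29368244 (12977 bp) 2.53. Fold varied little with width, with a Spearman's rho of 0.12 over the domains, for the mean log2 fold of the 6 libraries. The medians nevertheless climbed in the widest classes. Domains of 5000 to 6000 bp had a median of 4.23 and 4.43 in CK, 3.73 and 4.11 in GA, and 4.13 and 3.51 in slr1. Domains of 40000 bp or more had 4.95 and 5.42, 4.16 and 4.62, and 5.08 and 4.05 in the same order. Every library was higher in the wider class, which held only 11 domains.

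Coverage of the domains, as the percent of width under peaks, was high in all libraries. Its median was 90.2% and 95.0% in CK, 82.8% and 86.5% in GA, and 96.2% and 84.2% in slr1. Both GA libraries lay below both CK libraries, with a difference of -7.95 points between group means, while the replicates differed by 4.72 points in CK and 3.73 in GA. The other shared regions were lower in GA too, by -9.46 points and also without overlap, so the fall was not particular to the domains. In the domains, the slr1 replicates differed by 11.9 points and overlapped both other groups. Of the domain bases, 74.6% were marked in all 6 libraries, 7.74% in 5, and 4.77% in 1 library only.

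Replicates of slr1 differed in the same way in other measures. A single peak held 898 domains (77.5%) in slr1 replicate 1 and 613 (52.9%) in slr1 replicate 2. The CK libraries had 730 (63.0%) and 883 (76.2%), and GA 526 (45.4%) and 619 (53.4%). In 330 domains (28.5%) there was 1 peak in each library. The mean number of peaks per domain was 1.47 and 1.28 in CK, 1.80 and 1.65 in GA, and 1.28 and 1.68 in slr1. The GA libraries thus had more peaks per domain than CK, by 0.352 between group means, with no overlap. Whole-library peak cover moved with this: it was 27.8 Mb in slr1 replicate 1 and 21.3 Mb in slr1 replicate 2, 25.1 and 27.1 Mb in CK, and 22.4 and 24.1 Mb in GA. The part of that cover in these differences was not tested.

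The share of domains that were 1 peak in every library fell with width. It was not corrected for length. Of the 254 domains of 5000 to 6000 bp, 46.1% were 1 peak everywhere, and of the 356 of 10000 to below 20000 bp, 17.4%. None of the 11 widest was. In these 11, the mean number of peaks was 2.64 and 1.82 in CK, 3.73 and 3.18 in GA, and 1.27 and 2.82 in slr1. Coverage averaged over the libraries rose with width, from a median of 84.6% at 5000 to 6000 bp to 95.6% in these 11.

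Ends of the domains differed in position between the 6 libraries. Across the 2318 ends, the outermost peak positions of the 6 libraries spread over a median of 564 bp, with quartiles at 223 and 979 bp. In 1041 ends (44.9%) the spread was under 500 bp, and in 99 (4.27%) over 2000 bp. The largest was 4416 bp. The median peak began 145 and 57 bp inside the left end in CK, 269 and 179 bp in GA, and 48 and 285 bp in slr1. Libraries with more peak cover thus reached further out, and slr1 replicate 1 set 372 of the left ends.

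At 500 bp inside the ends of domains of 10000 bp or more, 71.6% and 82.1% of the 860 ends were under a peak in CK, 61.4% and 67.9% in GA, and 86.0% and 61.2% in slr1. At 2000 bp the shares were 93.5% and 96.4%, 88.0% and 89.2%, and 96.7% and 89.1%. At 5000 bp inside they reached between 91.5% (GA replicate 1) and 97.7% (CK replicate 2). Unmarked bases were divided between ends and inner gaps. In GA replicate 1, 8.88% of the domain bases were unmarked at the ends and 7.72% in gaps between peaks. In slr1 replicate 2 the shares were close to these, 8.93% and 6.91%, and in slr1 replicate 1 they were 3.49% and 2.36%.

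**Figure D3:**
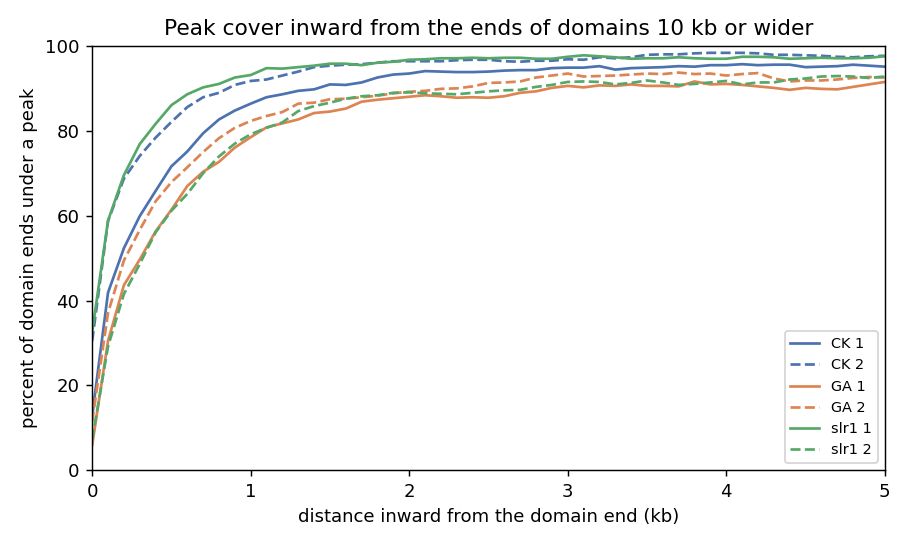
Percent of the 860 ends of domains 10 kb or wider that lie under a peak, by distance inward from the end in kb, for each library (solid lines replicate 1, dashed replicate 2). The curves rise steeply over the first 1 kb and more slowly after it, and slr1 replicate 1 and CK replicate 2 stay above the others up to 2 kb.

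Libraries shared most domain bases. The Jaccard index, shared bases over all bases marked in either library, was 0.919 for the CK pair, 0.886 for the GA pair and 0.871 for the slr1 pair. Between groups it averaged 0.887 for CK and GA, 0.885 for CK and slr1, and 0.859 for GA and slr1. Over the other shared regions the values were lower: 0.823, 0.781 and 0.706 within groups, and 0.779, 0.738 and 0.713 between them. Wider regions have fewer ends per base, and the rule itself required cover in every library.

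Differences in coverage between groups were small in most domains. The slr1 mean lay within 10 points of the CK mean in 881 domains (76.0%), beside 873 (75.3%) for the 2 CK replicates with each other and 595 (51.3%) for the 2 slr1 replicates. Among the other shared regions, which had no such bound and were mostly narrower, the share was 45.6%. The GA mean lay within 10 points of the CK mean in 810 (69.9%), against 54.8% of the other shared regions and 855 domains (73.8%) for the 2 GA replicates. The replicate counts compare single libraries, and the group counts compare means of 2, which vary less, so they are not like for like. In slr1 the mean joined replicates with median coverage of 96.2% and 84.2%, on either side of the CK medians of 90.2% and 95.0%. Coverage was lower in both GA libraries than in both CK libraries in 596 domains (51.4%, background 43.2%). It was higher in 23 (1.98%, background 4.99%). It was lower in both slr1 libraries than in both CK libraries in 274 (23.6%, background 34.4%) and higher in 124 (10.7%, background 8.08%). Against GA, slr1 was lower in 80 (6.9%, background 18.4%) and higher in 364 (31.4%, background 19.8%). The slr1 and GA comparisons share the CK libraries.

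Against all 4 wild-type libraries, coverage was lower in both slr1 libraries in 65 domains (5.61%, background 15.3%) and higher in 108 (9.32%, background 6.24%). The rule asked for 50% coverage everywhere, which keeps out large losses, and nothing is read from any of these shares of coverage. The number depended on the library: slr1 replicate 1 alone lay above the 4 others in 529 domains and below them in 69, and slr1 replicate 2 alone above in 125 and below in 427. Differences of more than 20 points between the slr1 mean and the mean of the 4 others were found in 14 of the 65 and 20 of the 108.

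Of the 65, 16 lay on chromosome 7, among its 96 domains, and chromosome 7 also held 12 of the 108. Chromosome 4 held 10 of 92, and the other chromosomes 1 to 6 each. Of the 14 with large differences, 6 were on chromosome 7. The share over all regions marked in every library was not computed by chromosome. Genome-wide it was 15.3% for lower and 6.24% for higher coverage in slr1, so nothing is read from the counts by chromosome. The largest fall from CK was at chr7:2231210-2268165 (36956 bp). Coverage there was 99.8% and 99.9% in CK, 95.4% and 93.8% in GA, and 70.3% and 51.1% in slr1. All 4 wild-type libraries were above 93%, and 6 separate peaks were left in each slr1 library. The longest stretch without a peak ran from 15.078 to 20.696 kb from the left end in slr1 replicate 1 and from 14.362 to 21.45 kb in slr1 replicate 2, where each wild-type library had a peak. Fold was 4.33 and 4.88 in CK, 3.71 and 4.15 in GA, and 3.59 and 3.12 in slr1.

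The next, chr7:2367086-2382192 (15107 bp), was covered at 87.3% and 99.01% in CK, 79.99% and 86.7% in GA, and 59.6% and 54.9% in slr1. The groups did not overlap there either. At rank 3, chr2:3753051-3764292 (11242 bp) had 90.1% and 98.4% in CK, 73.0% and 61.3% in GA, and 64.7% and 55.5% in slr1. Both GA and slr1 were lower than CK at that domain, and GA and slr1 overlapped.

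Both leading falls belong to the densest stretch of domains in the files. Between 2000001 and 3000000 on chromosome 7 lay 18 domains with 335 kb, more than in any other 1-Mb window, and the widest domain of all is among them. Windows that held a domain had a median of 3. In 8 of the 18, coverage was lower in both slr1 libraries than in all 4 others, and in 0 it was higher, where the background over all regions marked in every library was 15.3% and 6.24%. Together the 18 domains were covered at 95.0% and 98.6% in CK, 90.7% and 93.6% in GA, and 87.7% and 79.0% in slr1. Both slr1 libraries were lowest in this pooled share, in which wide domains weigh most. By the median over the 18 domains slr1 replicate 1, at 91.6%, stood above GA replicate 1, at 85.8%, and slr1 replicate 2 was lowest at 79.7%. Of the 8, 7 were neighbours in the files, from chr7:2173247-2192410 to the widest domain. The window was chosen after its values were seen.

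Domains with more coverage in slr1 lay on each numbered chromosome, with 17 of the 108 on chromosome 12, 14 on chromosome 8, 12 each on chromosomes 7 and 9, and 3 to 10 each on the rest. The largest rise over CK was at chr4:15939626-15949597 (9972 bp), with coverage of 56.8% and 62.1% in CK, 81.9% and 63.7% in GA, and 98.98% and 79.7% in slr1. There GA replicate 1 lay between the slr1 libraries, so slr1 was not above all the others.

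The second, chr2:17301287-17319679 (18393 bp), parted the groups fully. In slr1 a single peak covered 100% and 99.1% of it, and in CK 4 and 3 peaks covered 64.9% and 77.0%, in GA 3 and 4 peaks 57.0% and 61.3%. Fold there was 5.29 and 4.19 in slr1, 3.78 and 3.91 in CK, and 3.24 and 3.501 in GA. All 4 wild-type libraries had a break that began 4.069 to 4.18 kb from the left end. This is one of the domains in which both slr1 libraries were higher in fold as well. It lies beyond the right end of the seventh widest domain, chr2:17217929-17268246, whose coverage in slr1 was 99.4% and 98.2%, against 94.8% and 97.7% in CK. The rise at rank 3, chr5:24920095-24926052 (5958 bp), had 57.3% and 64.8% in CK, 68.7% and 61.6% in GA, and 98.2% and 79.7% in slr1.

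**Figure D4:**
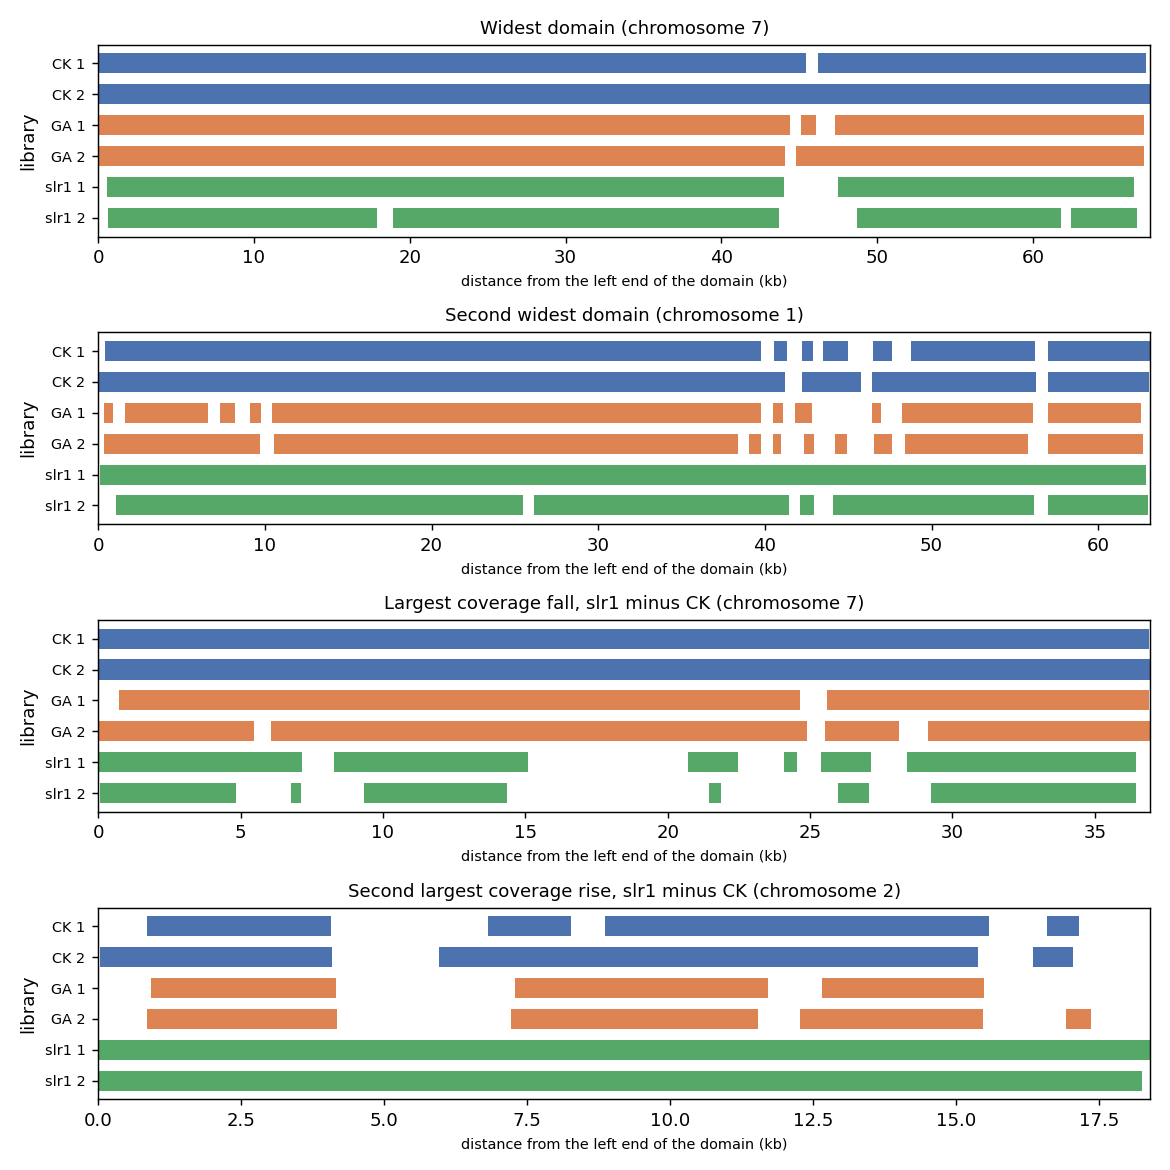
Peaks of each library (rows) in 4 domains, as distance in kb from the domain's left end, with a bar for each peak. In the domain of the largest fall the slr1 libraries lack a peak between 15.078 and 20.696 kb where the 4 others have one, and in that of the rise (bottom) the slr1 libraries have 1 peak over nearly the whole domain.

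Between CK and GA labels the largest falls in GA were at chr10:17883770-17899443 (15674 bp), chr12:25320283-25326734 (6452 bp) and chr1:34979238-34986587 (7350 bp). Coverage of the first was 83.9% and 94.5% in CK, 50.4% and 51.6% in GA, and 95.0% and 72.4% in slr1. There the mark broke into 5 peaks in each GA library, against 2 and 1 in CK. In the chromosome 12 domain, GA had 59.2% and 50.8% against 90.4% and 93.6% in CK, and in the chromosome 1 domain 58.2% and 59.6% against 88.7% and 99.8%. The GA libraries were below CK in all 3 domains. Both slr1 libraries were also below both CK libraries in the chromosome 12 domain, at 71.7% and 57.1%, and in the chromosome 1 domain, at 74.1% and 61.0%.

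Rises in GA were smaller. The largest was at chr6:23401138-23406673 (5536 bp), with 68.2% and 81.7% in CK, 98.4% and 98.1% in GA, and 62.7% and 58.1% in slr1. It was the only domain in which the GA mean exceeded the CK mean by more than 20 points, while 74 lay more than 20 points lower. Single replicates of one label, which vary more than means of 2, were also uneven. CK replicate 1 lay more than 20 points below CK replicate 2 in 64 domains and above it in 3. GA replicate 1 lay as far below GA replicate 2 in 53 and above it in 7. Both GA libraries stood above and both slr1 libraries below CK at the chromosome 6 domain. The second rise was chr3:25377710-25382805 (5096 bp), with 71.6% and 81.8% in GA against 62.7% and 63.9% in CK. Both slr1 libraries were above CK there too, at 100% and 80.4%. Rank 3 was the chromosome 4 domain that also led the slr1 rises.

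Each of the 12 numbered chromosomes held domains, from 66 on chromosome 10 to 147 on chromosome 1, and 1 domain lay on the sequence the files call ChrSy. Per Mb, up to the last peak of the chromosome, chromosome 4 had the fewest, 2.59, and chromosome 12 the most, 3.67. Of the regions marked in every library, domains were 10.6% on chromosome 6 and 15.5% on chromosome 12. Median width ran from 7536 bp on chromosome 2 to 9527 bp on chromosome 9. The median fold over libraries ran from 3.89 on chromosome 11 to 4.40 on chromosome 6.

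Along the chromosomes, domains were thinnest near the middle. Each chromosome was divided into 10 equal bins up to its last peak. Bin 5 from the low end held 59 domains (5.09%), and bins 1 and 10 held 153 (13.2%) and 148 (12.8%). The other shared regions followed a flatter course, with 6.71%, 10.6% and 11.4% in the same bins. Bins 1 and 10 together had 26.0% of the domains and 22.1% of the other shared regions. Position was not part of the rule, but neighbouring regions are not independent, so no test is given.

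**Figure D5:**
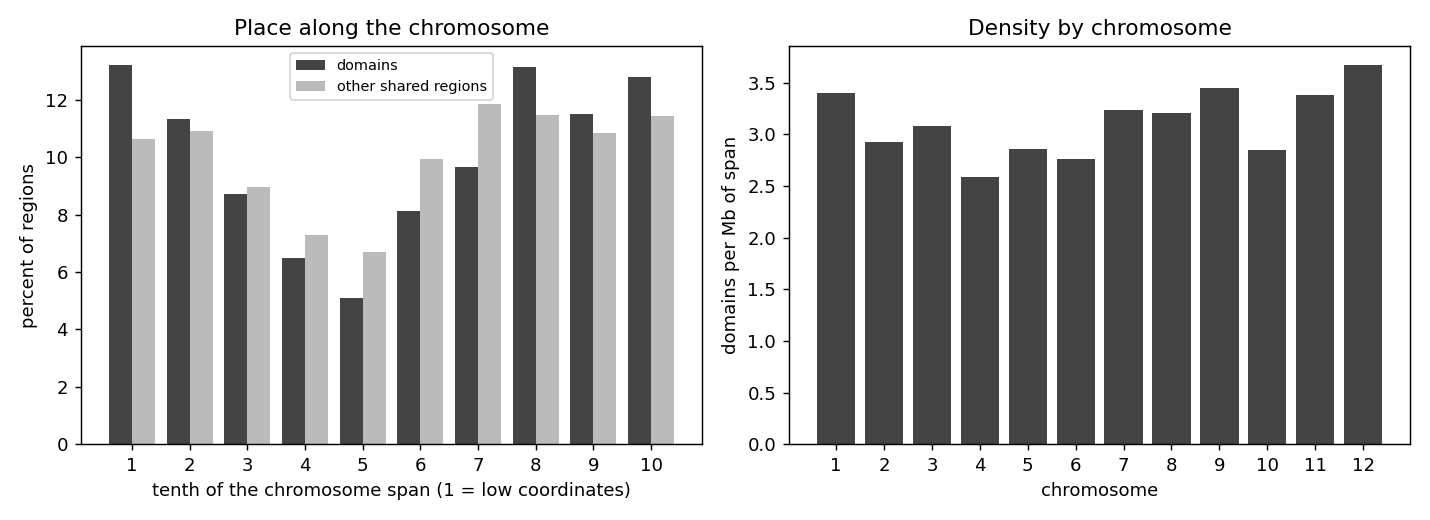
Left, percent of domains (dark) and of other shared regions (light) in each of 10 equal bins of the span of their chromosome, where the span ends at the last peak. Right, domains per Mb on the 12 numbered chromosomes. Domains dip to 5.09% in bin 5, and density ranges from 2.59 to 3.67 per Mb.

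Long stretches had no domain. The longest on chromosome 3 ran over 4.204 Mb, chr3:16460652-20665053, and on chromosome 8 over 4.36 Mb, chr8:11380965-15742584. On chromosome 9 it was the low end of the chromosome, 4.44 Mb up to position 4441723. These stretches still held 52, 45 and 39 regions marked in every library. Of 379 windows of 1 Mb, 56 (14.8%) held no domain. Domains were also found close together: of 1146 gaps between neighbours, with a median of 129.96 kb, 179 (15.6%) were under 10 kb and 43 under 1 kb.

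Both limits of the rule cut through a continuous range. The narrowest domains were chr12:20756180-20761179 at 5000 bp, chr7:3262948-3267949 at 5002 bp and chr6:9720887-9725895 at 5009 bp, with lowest coverages of 76.5%, 59.9% and 77.6%. Just too narrow were chr7:22753027-22758025 at 4999 bp, chr10:4053257-4058254 at 4998 bp and chr12:27412711-27417699 at 4989 bp, and the first of these had a mean fold of 6.53. Just above 50% coverage stood chr1:14914240-14920462, chr12:7374960-7384213 and chr6:21088349-21094629, at 50.04%, 50.2% and 50.3% in their lowest library. Just below it stood chr3:15386112-15393105, chr4:13244012-13251515 and chr7:4861039-4866264, each between 49.7% and 49.8%.

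The 199 wide regions that missed the coverage limit did so mostly through the libraries with less peak cover. In 111 of them slr1 replicate 2 was under 50%, in 94 GA replicate 1, in 66 GA replicate 2 and in 43 CK replicate 1, while CK replicate 2 had 19 and slr1 replicate 1 had 12. In 67 the shortfall was in slr1 replicate 2 alone. Both slr1 libraries and no other fell short in 7, both GA libraries and no other in 17, and both CK libraries and no other in 0. Only 8 of the 199 lacked a peak in some library.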

How the data were processed

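The deposited H3K27me3 peak lists, 1 per library, were made by the authors with Trim Galore 0.6.6, Bowtie2 2.4.4, deepTools 3.5.0 and MACS2 2.2.7.1, per the submitters' processing notes. Broad calling appears in the peak names. Use of the 2 input libraries in peak calling, duplicate handling and the genome build are named in no source used here. The deposited values used were each peak's fold enrichment (a ratio over background) and its −log10 q, which was at least 1.00 in each library. Read depth is unknown, so intervals for counting error could not be given. The RNA tables identify genes by locus IDs without positions and were not used here.

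Peaks were joined across libraries, and coverage, peak number, ends and length-weighted fold were computed with Python 3.11.15, pandas 2.3.3 and NumPy 2.4.6. The rule was checked on simulated peaks. Domains, lists and comparisons were chosen with earlier results of these data known. For this reason no p is printed for values over the domains. An exact permutation test over 3 groups of 2 libraries cannot go below 0.0667 in any case. Named domains are the 10 widest, the 3 highest and 3 lowest in fold, the 3 largest coverage rises and falls in slr1 and in GA against CK, and the 3 on each side of both limits. The chromosome 7 window was chosen after its values were seen. A background percent is the share of the 9076 regions marked in every library, domains included, in which the same groups do not overlap. Alternatives changed the width and coverage limits, the joining distance, the peak threshold, the averaging of fold and the libraries used.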

Additional observations from a re-analysis of the deposited data

How the results depend on the processing

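The number of domains was 430 at a width limit of 10000 bp and 655 at a coverage limit of 75%. It was 1157 when peaks up to 1000 bp apart were joined, 842 with peaks of fold 3 or more, and 1126 to 1223 without 1 library. Lower coverage and fold and more peaks per domain in GA than in CK kept their direction under all alternatives run. So did the higher ratio of domain fold to that of other shared regions in slr1, which exceeded CK by 0.0555 to 0.128 and GA by 0.0756 to 0.151 without 1 library, and the lower domain fold in slr1 than in CK, -0.477. That last difference ran from -0.823 without slr1 replicate 1 to -0.124 without slr1 replicate 2, and the libraries of these groups overlapped. Fold in GA minus CK, -0.463, ran from -0.663 without GA replicate 2 to -0.254 without GA replicate 1, and was -0.306 without CK replicate 2. The ratio in GA minus CK, -0.0195, turned to 0.00838 with peaks of fold 3 or more and to 0.0225 with the highest peak of each domain, and ran from -0.0471 to 0.00354 without 1 library. Coverage in slr1 minus CK, -2.41 points, ran from -8.30 to 3.64, turning without slr1 replicate 2. Peaks per domain in slr1 minus CK, 0.100, ran from -0.0879 to 0.310 and turned without the same library. The causes were not tested. Counts of domains with slr1 coverage outside the range of the 4 other libraries, by 1 slr1 library alone, were added after seeing the data and ran from 69 to 427 below and from 125 to 529 above.

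Libraries of the same replicate number did not deviate together. Deviations of log2 fold from group means, across domains, correlated at -0.03 between CK and GA, -0.38 between CK and slr1, and -0.12 between GA and slr1. In groups of 2 the deviations mirror each other, so at -0.38 slr1 replicate 1 went with CK replicate 2 rather than CK replicate 1. A replicate block leaves differences of group means as they are, such as -0.463 for fold and -7.95 points for coverage in GA minus CK, and so does crossing the slr1 numbers. With 2 replicates a group no exact test could make a call in any of these pairings, so whether pairing matters was not tested.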
